A study of Mus musculus with 4 samples.

Results

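The MYC and MAX network was examined in mouse iTreg cells that had been given iron. It is a family of basic helix-loop-helix leucine zipper transcription factors, and 10 of its genes were taken by symbol (*Myc*, *Mycn*, *Max*, *Mxd1*, *Mxd3*, *Mxd4*, *Mnt*, *Mga*, *Mlx* and *Mlxip*). All 10 were matched by Ensembl ID to a row of the count table, which held 47729 gene rows, and all 10 passed the filter on low counts. iTreg cells are CD4 T cells in which TGF-β has induced Foxp3, the lineage factor of regulatory T cells, outside the animal. The cells came from C57BL/6 mice (tissue given as spleen; the methods add lymph nodes), and mice other than knockouts were 6 to 8 weeks old and age-matched. Naive CD4 T cells were stimulated through CD3 and CD28. Every library, Mock included, was exposed to TGF-β at 5 ng/mL, to IL-2 at 100 U/mL and to blocking antibodies against IL-4 and IFN-γ at 5 µg/mL each. The FeSO4 group received 50 µM iron sulfate and the Mock group PBS, in both cases for 4 days, and each group had 2 libraries. The comparison asked which transcripts of iTreg cells differed after iron.

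MYC binds DNA as a heterodimer with MAX, preferentially at the E-box CACGTG, and drives genes of ribosome biogenesis, nucleotide synthesis and cell growth. In T cells it is induced by antigen receptor and IL-2 signals and is needed for growth after activation. The MXD proteins and MNT compete with MYC for MAX and recruit the SIN3 histone deacetylase complex, and MGA carries MAX into a Polycomb complex, PRC1.6. MLX is a parallel hub, which pairs with MondoA (encoded by *Mlxip*), a sensor of glucose phosphates, as well as with some MXD proteins and MNT.

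Because the network reads the E-box, the promoters of its own genes were searched for CACGTG, a palindrome and so the same on both strands. The windows ran from 250 bases before to 50 bases after the transcript start (RefSeq, GRCm38.p6). Windows were on hand for 9 of the 10 genes, *Myc* having no entry. Each of the 9 had 1 window, set on 1 transcript start that need not be the outermost start of the gene. For *Mga* the window (chr2:119896978-119897277) lay inside the gene, whose range begins at 119872503, and for *Mlx* it also lay inside the gene. Other starts of these genes were not searched, and the distances below refer to the start used for the window. CACGTG lay in 4 of these 9 windows (44.4%) and in 2349 of all 32851 windows (7.15%). The matches follow with 12 bases on each side, 5′ to 3′ on the strand of the gene, and with CACGTG in capitals, since these are the letters that MYC, MXD and MNT dimers recognize.
Max, chr12:76962234-76962263, minus strand, starting 3 bases before the transcript start: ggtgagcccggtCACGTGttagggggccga
Mxd4, chr5:34187912-34187941, minus strand, starting 219 bases before: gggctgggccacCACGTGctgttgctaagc
Mnt, chr11:74830789-74830818, plus strand, starting 123 bases before: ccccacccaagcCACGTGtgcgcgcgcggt
Mlx, chr11:101087238-101087267, plus strand, starting 40 bases before: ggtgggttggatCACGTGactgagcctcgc
Arrdc4, a target of MondoA and MLX, chr7:68749414-68749443, minus strand, starting 193 bases before: aaaggtcctgtgCACGTGcactatggtgtc
In *Max* the capitals run across the transcript start itself. The windows of *Mycn*, *Mxd1*, *Mxd3*, *Mga* and *Mlxip* held no CACGTG. A related form, CACGCG, read on both strands, was present in 1 of the 9 windows, that of *Mga* (11.1%), and in 3045 of all windows (9.27%). The window of *Txnip*, a further MondoA target, held CACGCG at 2 places and no CACGTG. A match describes letters only, and binding was not measured.

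The libraries held 35183187 to 40859178 reads in gene rows, and a count of 3, which a count of 0 still allows, corresponded to 0.0734 to 0.0853 CPM (counts scaled by library size; the limit covers counting error only). The biological coefficient of variation was 8.24%. All libraries carried T cell markers (*Cd4* 22973 to 25605 counts, *Cd3e* 11136 to 12806 counts). *Foxp3* had 23802 and 28997 counts in Mock and 12869 and 17458 counts in FeSO4, so its RNA count was lower in both FeSO4 libraries. These counts were not scaled for depth, and no test of this marker is given here. By intracellular staining, the paper reported that iron sulfate changed Foxp3 induction in iTreg cells little. Of 13 matched markers of other cell types, 2 (*Ncr1* and *Klrb1c* of NK cells) were at 0 throughout. Summed counts in Mock and FeSO4 were 77 to 114 and 69 to 76 for 3 B cell markers, 3650 to 3966 and 3954 to 4351 for 4 myeloid markers, nearly all of them *Cst3*, and 378 to 398 and 341 to 408 for 2 CD8 T cell markers. They were 38 to 44 and 19 to 42 for 3 NK cell markers, and 820 to 994 and 1202 to 1284 for the erythroid gene *Hba-a1*. Mock replicate 1 stood apart for *Lyz2*, with 164 counts against 0 to 8 elsewhere, and for *Cd8a*, with 94 counts against 25 to 47. The part of these cells in the values below was not tested. In bulk RNA, fewer cells of a type and less RNA per cell cannot be told apart. Per the methods the libraries were 2 pairs that came from 2 independent experiments, and nothing says how many animals each held, so p-values measure only the spread between these libraries.

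Of the 10 genes, 2 were lower after iron with an adjusted p under 0.05 (edgeR's quasi-likelihood test, adjusted over 13732 genes), and none was higher. The genes that fell were *Mxd4* and *Mga*, which both encode MAX partners that act against MYC or without it. Among all genes tested, 9.17% were lower, 10.9% were higher and 20% were called in either direction, so the 20% of network genes called equaled the share of all genes. Without adjustment, 3 network genes were lower and 0 higher at p under 0.05, where 15.2% of all genes were lower and 17.1% higher (32.3% in either direction), and DESeq2 and limma-voom also called 2 lower and 0 higher. Both FeSO4 libraries lay below both Mock libraries for 4 genes (*Mycn*, *Mxd4*, *Mnt* and *Mga*), as for 29.4% of all genes, and above them for 2 genes (*Max* and *Mlx*), as for 30.1% of all genes. The median log2 fold change was -0.10 over the network and -5e-04 over all genes tested.

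**Figure D1:**
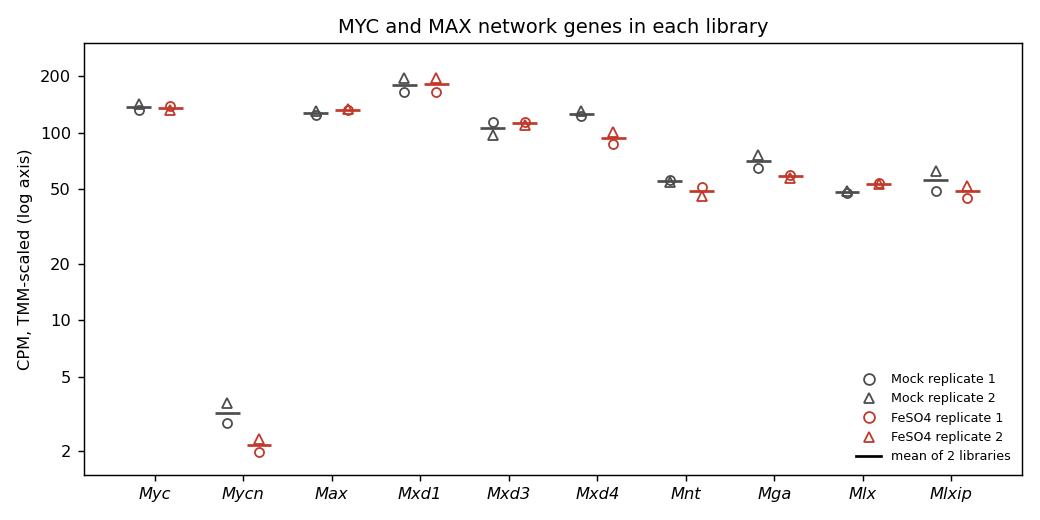
CPM of the 10 network genes in each library, on TMM-scaled library sizes and a log axis; circles are replicate 1, triangles replicate 2, gray Mock and red FeSO4, and bars are means of 2 libraries. *Mxd4* sits at 123 and 131 CPM in Mock against 87.5 and 101 CPM in FeSO4, while the *Myc* libraries of the groups interleave between 132 and 143 CPM.

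*Myc* encodes the oncogenic driver of growth at the centre of the network (ENSMUSG00000022346, chr15:61985341-61990361, GRCm38.p6 as all positions here). Its level was 132.6 and 142.6 CPM in Mock replicates 1 and 2, and 138.6 and 131.9 CPM in FeSO4 replicates 1 and 2. The groups overlapped, and the FeSO4 library was the higher one in the replicate 1 pair and the lower one in the replicate 2 pair. *Myc* had a log2 fold change of -0.025 ± 0.069 (SE), with a 95% interval of -0.17 to 0.12 (adjusted p = 0.846). Its sign turned with the library left out (-0.086 to 0.028). Among the genes whose 4 values followed *Myc* most closely, out of 8437 with a symbol and a mean of at least 10 CPM, were *BC031181* (Euclidean distance 0.0108, in log2 CPM around the gene's own mean over 4 libraries) and *Arhgef6* (0.0117).

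*Mycn*, the paralog best known from neural and embryonic tissue (chr12:12936093-12941836), was scarce. It had 115 and 151 counts in Mock and 68 and 86 counts in FeSO4, or 2.83 and 3.61 CPM against 1.99 and 2.32 CPM. Both FeSO4 libraries were the lower ones. At this depth the log2 fold change of -0.58 ± 0.29 did not pass the test, and its 95% interval reached from -1.18 to 0.023 (adjusted p = 0.172). Of the 10 genes it had the most negative estimate and the widest interval.

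*Max*, whose product is a DNA-binding partner of MYC, MXD, MNT and MGA (chr12:76937269-76962323), was at 124.5 and 131.2 CPM in Mock, against 131.6 and 133.4 CPM in FeSO4. The FeSO4 libraries were both above Mock by a margin smaller than the gap between the Mock libraries. For *Max* the log2 fold change was 0.052 ± 0.067 (95% interval -0.089 to 0.19, adjusted p = 0.639), and it was -0.013 when only library size was used for scaling.

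*Mxd4* had the smallest adjusted p of the network. MXD4 is a MAX partner associated with cells that leave the cell cycle, and it represses E-box genes that MYC activates (ENSMUSG00000037235, chr5:34176580-34187710). Its level was 123.1 and 130.5 CPM in Mock, against 87.45 and 101.0 CPM in FeSO4. The groups did not overlap, and the mean fell from 126.8 ± 5.22 to 94.2 ± 9.55 CPM (SD, n = 2 each), to 74.3% of Mock. The log2 fold change was -0.43 ± 0.077 (95% interval -0.59 to -0.26, adjusted p = 0.00095), and it was -0.49 and -0.37 in the replicate 1 and replicate 2 pairs. It ranged from -0.54 to -0.33 over all alternatives. With every gene of at least 1 count tested the adjusted p was 0.0566, and the study's cutoff of 0.5 on the log2 scale was not reached, while the call was kept in the other alternatives. Its promoter window is one of the 4 with CACGTG.

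The other MXD genes did not pass the test. *Mxd1*, which encodes a repressor induced during differentiation (chr6:86647044-86669234), was at 165.0 and 196.3 CPM in Mock, against 165.9 and 197.3 CPM in FeSO4. Replicate 2 lay above replicate 1 by 0.25 on the log2 scale in both groups, while the same-numbered libraries differed by 0.0083 and 0.0074. Its log2 fold change was 0.0082 ± 0.087 (95% interval -0.18 to 0.19, adjusted p = 0.966), and it lay between -0.12 and 0.14 with a library left out. *Mxd3*, a family member expressed in dividing cells (chr13:55325170-55329900), was at 114.7 and 97.5 CPM in Mock, against 114.2 and 110.7 CPM in FeSO4. Mock replicate 2 was the low one and the groups overlapped (log2 fold change 0.084 ± 0.079, 95% interval -0.083 to 0.25, adjusted p = 0.5). The estimate was -0.029 without Mock replicate 2 and 0.20 without Mock replicate 1. Exons of *Mxd3* share 104 bases with *Prelid1* on the other strand, and since the strand setting of the counting was not given in the sources used here, reads there cannot be told apart.

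*Mnt* encodes a broadly expressed antagonist of MYC that binds both MAX and MLX (chr11:74830806-74845725). It was at 55.8 and 55.0 CPM in Mock, against 51.2 and 46.2 CPM in FeSO4. Both FeSO4 libraries were lower, and the mean was 88% of Mock. The log2 fold change was -0.18 ± 0.083 (95% interval -0.36 to -0.0095), and the adjusted p of 0.133 missed the threshold. With scaling by library size only it passed (-0.25, adjusted p = 0.0404).

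*Mga* encodes a very large protein with a T-box as well as a helix-loop-helix domain, the scaffold of PRC1.6 (ENSMUSG00000033943, chr2:119872503-119970129). Its level was 64.7 and 76.6 CPM in Mock, against 59.8 and 57.6 CPM in FeSO4. The groups did not overlap, and Mock replicate 2 was the highest. The mean fell from 70.65 ± 8.38 to 58.67 ± 1.52 CPM (SD, n = 2 each), to 83.1% of Mock, a log2 fold change of -0.27 ± 0.087 (95% interval -0.45 to -0.086, adjusted p = 0.0373). The call rested on the replicate 2 libraries. The change was -0.12 in the replicate 1 pair and -0.41 in the replicate 2 pair. Without Mock replicate 2 it was -0.14 (adjusted p = 0.333), and without FeSO4 replicate 2 it was -0.24 (adjusted p = 0.116). With every gene of at least 1 count tested it was -0.27 (adjusted p = 0.208).

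**Figure D2:**
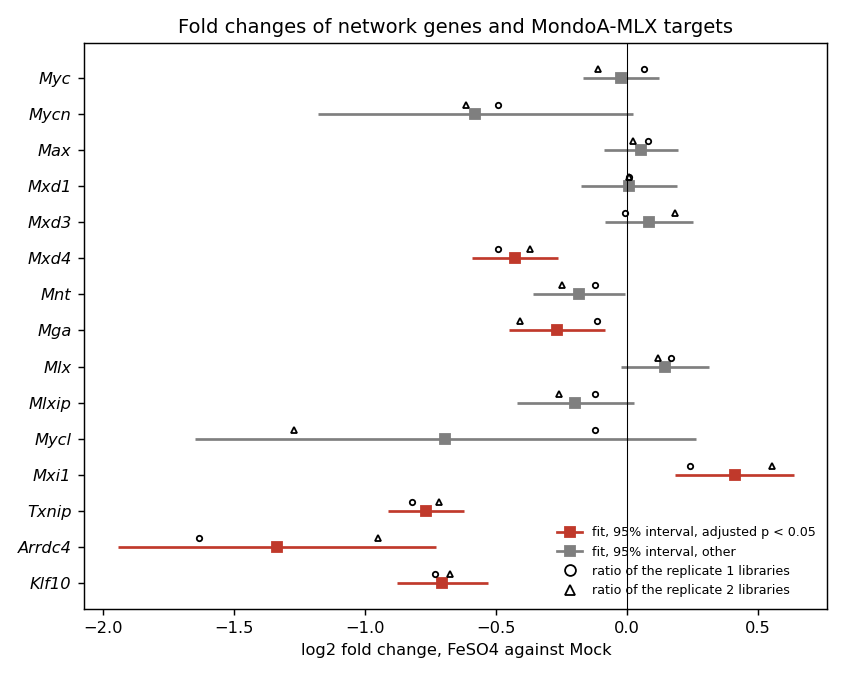
Log2 fold changes, FeSO4 against Mock, of the network genes, of 2 family members outside the list and of 3 MondoA-MLX targets; squares are the fitted values with 95% intervals, red where the adjusted p was under 0.05, and circles and triangles are the ratios within the replicate 1 and replicate 2 libraries. *Mxd4* and *Mga* are the red network genes at -0.43 and -0.27, and the 3 targets lie between -1.34 and -0.70.

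*Mlx* and *Mlxip* encode the MLX and MondoA pair, which carries the glucose signal to promoters. *Mlx* (chr11:101086707-101092207) was at 47.9 and 49.0 CPM in Mock, against 53.9 and 53.1 CPM in FeSO4. Both FeSO4 libraries were above both Mock libraries, and replicates lay close together. The log2 fold change of 0.14 ± 0.08 did not pass (95% interval -0.025 to 0.31, adjusted p = 0.231), and *Mlx* shares 385 exon bases with *Psmc3ip* on the other strand. *Mlxip* (chr5:123394521-123457932) was at 49.2 and 62.5 CPM in Mock, against 45.2 and 52.2 CPM in FeSO4. Replicate 2 was the higher one in both groups, which overlapped. The log2 fold change was -0.20 ± 0.11 (95% interval -0.42 to 0.026, adjusted p = 0.211), and it turned on the library left out: -0.37 (adjusted p = 0.025) without Mock replicate 1, -0.31 (0.0508) without FeSO4 replicate 2, -0.098 (0.644) without FeSO4 replicate 1 and -0.015 (0.953) without Mock replicate 2. *Mlxip* shares 264 exon bases with *Gm15747*.

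All 3 known MondoA-MLX targets on the list fell after iron, where 9.17% of all genes were called lower, while neither subunit passed the test. This short list was chosen with earlier results of these data known, so the 3 calls describe it and are no independent support. *Txnip*, which encodes an inhibitor of glucose uptake and of thioredoxin, was at 374 and 395 CPM in Mock, against 212 and 240 CPM in FeSO4. No library of one group reached the range of the other, and the level fell to 58.8% of Mock (log2 fold change -0.77 ± 0.069, adjusted p = 9.5e-07). *Klf10*, a TGF-β-inducible zinc finger gene, was at 60.6 and 59.1 CPM in Mock, against 36.5 and 37.0 CPM in FeSO4. It fell to 61.4% of Mock with little spread in either group (log2 fold change -0.70 ± 0.082, adjusted p = 1.55e-05). *Arrdc4*, a close relative of *Txnip*, had 203 and 159 counts in Mock and 53 and 71 counts in FeSO4. It fell to 39.4% of Mock, with a log2 fold change of -1.34 ± 0.29 (adjusted p = 0.00357), and with every gene of at least 1 count tested the adjusted p was 0.0531. Within the network and its cofactor and target lists, *Txnip*, *Klf10*, *Arrdc4* and *Sap30* were the only genes that also met the study's cutoff (unadjusted p under 0.05 and a log2 change of at least 0.5), which 4.67% of all genes met as higher and 5.73% as lower. No network gene met it.

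Levels of different genes were compared per kb of exon, on mm9 exon models (GENCODE M1), which may differ from those used for counting. In Mock, *Max* was the most abundant at 63.8 ± 2.36 CPM per kb (SD, n = 2), followed by *Mxd3* at 51 ± 5.84, *Myc* at 50.6 ± 2.6, *Mxd1* at 38.7 ± 4.75 and *Mxd4* at 32.7 ± 1.35 CPM per kb. *Mxd3* and *Myc* were the only neighbors in the Mock order whose libraries overlapped. Below them came *Mlx* (24.2 ± 0.364), *Mnt* (12 ± 0.122), *Mlxip* (6.8 ± 1.14), *Mga* (4.61 ± 0.546) and *Mycn* (0.979 ± 0.167 CPM per kb). In FeSO4 the order was the same except that *Mlx* (26.6 and 27 CPM per kb) lay above *Mxd4* (22.5 and 26 CPM per kb), and no neighbors overlapped. *Myc* transcripts exceeded those of *Mycn* 56.7- and 47.8-fold per kb in Mock and 84.6- and 68.8-fold in FeSO4.

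The summed level of the MAX-binding repressors *Mxd1*, *Mxd3*, *Mxd4* and *Mnt* was 134 CPM per kb in both Mock libraries and 124 and 132 CPM per kb in FeSO4. *Mxd4* made up 23.6% and 25% of this sum in Mock and 18.2% and 19.8% in FeSO4, without overlap. *Myc* was equal to 36.3% and 39% of the sum in Mock and to 41.1% and 36.9% in FeSO4, with overlap. Neither share was tested. Per kb, *Mlx* exceeded *Mlxip* 4- and 3.22-fold in Mock and 4.9- and 4.18-fold in FeSO4, without overlap, and this ratio was not tested either.

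**Figure D3:**
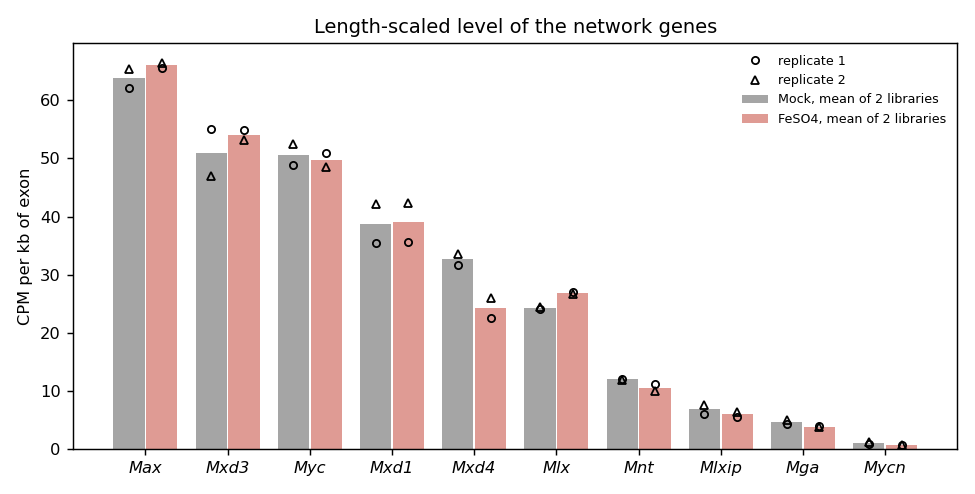
CPM per kb of exon for the 10 network genes; bars are means of 2 libraries (gray Mock, red FeSO4), circles replicate 1 and triangles replicate 2. *Max*, *Mxd3* and *Myc* lead with 49.8 to 66.1 CPM per kb on average in both groups, and *Mxd4* moves from 32.7 to 24.3 CPM per kb, below *Mlx*.

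The family members outside the 10 were measured as well. *Mxi1*, an MXD relative, was at 28.8 and 29.1 CPM in Mock, against 34.1 and 42.8 CPM in FeSO4. Both FeSO4 libraries were higher, so this repressor rose while *Mxd4* fell (log2 fold change 0.41 ± 0.11, adjusted p = 0.0121). With every gene of at least 1 count tested, *Mxi1* missed the threshold (adjusted p = 0.132). The adjusted p was 0.0602 without Mock replicate 1, 0.0538 without Mock replicate 2 and 0.233 without FeSO4 replicate 2, where the change was 0.23. *Mycl*, the third MYC paralog, had 48 and 55 counts in Mock and 37 and 18 counts in FeSO4 (log2 fold change -0.69 ± 0.45, adjusted p = 0.312). *Mlxipl*, which encodes the MondoA relative ChREBP, had 0 to 2 counts per library and was not tested. A promoter window of *Mlxipl* held CACGTG, starting 98 bases before the transcript start, and the windows of *Mxi1* and *Mycl* held none.

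Cofactors through which the network acts were counted next. These lists and those of targets were chosen with earlier results of these data known, so their shares are descriptions only. Of 12 MYC coactivators and partner factors, 2 were lower and 0 higher, with a median log2 fold change of -0.054, and without adjustment 3 were lower and 0 higher. The share called lower was 16.7%, against 9.17% of all genes, and all genes had 15.2% lower without adjustment. *Ep400*, a chromatin remodeling ATPase of the TIP60 complex, fell by 0.28 on the log2 scale (adjusted p = 0.00701), and *Hcfc1*, a cofactor that binds MYC, fell by 0.21 (adjusted p = 0.0439). *Trrap*, the scaffold of histone acetyltransferase complexes, had -0.22 (adjusted p = 0.0507) and the helicase gene *Ruvbl2* 0.17 (adjusted p = 0.173). With every gene of at least 1 count tested, *Ep400* (-0.28, adjusted p = 0.0829) and *Hcfc1* (-0.21, adjusted p = 0.221) missed the threshold. *Ep400* lost its call without Mock replicate 2 (adjusted p = 0.0621), and *Hcfc1* without Mock replicate 1 (0.0533), Mock replicate 2 (0.162) or FeSO4 replicate 2 (0.457). *Trrap* passed in 7 of 13 alternatives (adjusted p 0.00828 to 0.394 with a library left out, and 0.0473 with DESeq2 size factors), and *Ruvbl2* without FeSO4 replicate 2 (0.0219).

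Of 11 genes of the SIN3 corepressor that MXD and MNT recruit, 2 were higher (18.2%, against 10.9% of all genes) and 0 lower, with a median of 0.11, and without adjustment 3 were higher and 0 lower, where all genes had 17.1% and 15.2%. *Sap30* rose by 0.50 (adjusted p = 0.00592) and *Sap18* by 0.27 (adjusted p = 0.0076), both of which encode subunits of the complex. With every gene of at least 1 count tested, *Sap30* (0.51, adjusted p = 0.0566) and *Sap18* (0.27, adjusted p = 0.0524) missed the threshold. The deacetylase gene *Hdac2* had 0.17 (adjusted p = 0.0896) and the scaffold gene *Sin3b* 0.13 (adjusted p = 0.212). *Hdac2* passed with the replicate block (0.0453). Without FeSO4 replicate 1, *Sap30* had an adjusted p of 0.0623. Of 9 PRC1.6 partners of MGA, 2 were higher (22.2%, against 10.9% of all genes) and 0 lower (against 9.17%), with a median of 0.02, and without adjustment 2 were higher and 2 lower, where all genes had 17.1% and 15.2%. *Cbx3*, which encodes the heterochromatin protein HP1γ, rose by 0.24 (adjusted p = 0.0347) and *Tfdp1*, the dimer partner of E2F factors, by 0.20 (adjusted p = 0.0366). With every gene of at least 1 count tested, *Cbx3* (0.24, adjusted p = 0.195) and *Tfdp1* (0.21, adjusted p = 0.128) missed the threshold. The ubiquitin ligase gene *Ring1* had -0.23 (adjusted p = 0.0926) and *L3mbtl2*, which encodes a histone reader, -0.21 (adjusted p = 0.129). *Cbx3* lost its call without Mock replicate 1 (0.243) or FeSO4 replicate 2 (0.278), and *Tfdp1* without Mock replicate 2 (0.174) or FeSO4 replicate 1 (0.275). *Ring1* passed without Mock replicate 2 (0.0419). The direction of the calls turned with the scaling. With library size only, 0 genes were higher and 2 lower: *Ring1* (0.0307) and *L3mbtl2* (0.0442) passed, while *Cbx3* (0.123) and *Tfdp1* (0.142) did not. *Tfdp1* also missed the threshold with upper quartile scaling (0.0571), and *Ring1* passed with the replicate block (0.0332).

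MYC protein is short-lived, and several enzymes set its turnover. Of 12 such genes, 4 were lower (33.3%, against 9.17% of all genes) and 1 higher (8.33%, against 10.9%), with a median of -0.051. Without adjustment, 5 were lower and 3 higher, where all genes had 15.2% and 17.1%. With every gene of at least 1 count tested, 1 was lower (*Trpc4ap*) and 0 higher, among 304 lower and 524 higher genes in all. *Trpc4ap*, which encodes a receptor of a ubiquitin ligase for MYC, fell by 0.43 (adjusted p = 0.000118), and the ubiquitin ligase gene *Huwe1* fell by 0.29 (adjusted p = 0.00539). *Pim1*, a kinase that stabilizes MYC, fell by 0.36 (adjusted p = 0.00617), and *Usp36*, a deubiquitinase of MYC, fell by 0.32 (adjusted p = 0.0135). *Cip2a*, an inhibitor of the phosphatase that destabilizes MYC, rose by 0.24 (adjusted p = 0.0148). Genes whose products promote decay of MYC and genes whose products stabilize it were therefore both among those that fell. Without Mock replicate 2, *Huwe1* (0.0642), *Pim1* (0.0709) and *Usp36* (0.0662) missed the threshold. *Usp36* also missed it without FeSO4 replicate 2 (0.12), *Pim1* without FeSO4 replicate 1 (0.0798), and *Cip2a* without Mock replicate 1 (0.092) or FeSO4 replicate 1 (0.0643). DESeq2 did not call *Pim1* (adjusted p = 0.158), and *Cip2a* did not pass with scaling by library size only (0.0632).

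Of 30 genes known to be induced by MYC, 7 were higher and 1 lower in FeSO4 (23.3% and 3.33%, against 10.9% and 9.17% of all genes), with a median of 0.11 and a positive estimate for 22 (73.3%, against 49.9% of all genes). Without adjustment, 10 were higher and 2 lower, where all genes had 17.1% and 15.2%. With the replicate block, 10 were higher and 2 lower at an adjusted p under 0.05, among 1847 higher and 1580 lower genes in all. With every gene of at least 1 count tested, 5 were higher and 1 lower, among 524 higher and 304 lower genes in all. *Npm1* and *Ncl*, abundant nucleolar proteins of ribosome assembly, rose by 0.45 (adjusted p = 5.38e-05) and 0.43 (adjusted p = 0.000104), and *Nop58*, a core protein of small nucleolar ribonucleoproteins, rose by 0.35 (adjusted p = 0.00128). *Cad*, which encodes the enzyme that starts pyrimidine synthesis, fell by 0.45 (adjusted p = 0.000225). The other 4 that rose, named after their values were seen, were the translation initiation factors *Eif4e* (0.36, adjusted p = 0.00204) and *Eif4a1* (0.30, adjusted p = 0.00275), *Pa2g4* (0.27, adjusted p = 0.00865) and *Mrto4* (0.27, adjusted p = 0.0313). *Pa2g4* missed the threshold without FeSO4 replicate 1 (0.161), and *Mrto4* without Mock replicate 1 (0.0879), Mock replicate 2 (0.103) or FeSO4 replicate 1 (0.273) or with scaling by library size only (0.0924). CACGTG lay in 8 of the 24 promoter windows found for these genes (33.3%, against 7.15% of all windows) and CACGCG in 5 (20.8%, against 9.27%).

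None of 5 genes that MYC represses was called by edgeR, DESeq2 or limma-voom, where 20% of all genes were called by edgeR. Without adjustment 1 was lower (*Cdkn1a*) and 0 higher, where all genes had 15.2% and 17.1%. The cell cycle inhibitor gene *Cdkn1a* was at 269 and 276 CPM in Mock, against 254 and 237 CPM in FeSO4. Both FeSO4 libraries were lower (log2 fold change -0.15, adjusted p = 0.103), and the gene passed with scaling by library size only (adjusted p = 0.0201). *Cdkn1b* (0.043, adjusted p = 0.795), *Ndrg1* (0.085, adjusted p = 0.615), *Gadd45a* (0.097, adjusted p = 0.784) and the scarce *Cdkn2b* (0.58, adjusted p = 0.283) had positive estimates that did not pass, and the median of the list was 0.085.

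**Figure D4:**
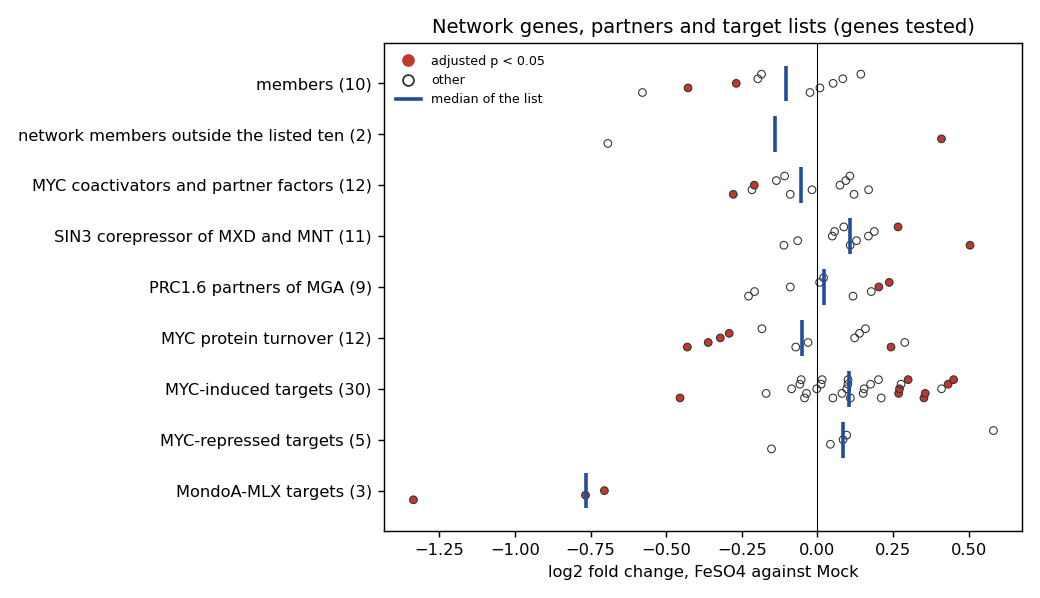
Log2 fold changes, FeSO4 against Mock, of every tested gene of the network and of 8 lists of its relatives, cofactors and targets, with the number of genes tested in brackets; red points had an adjusted p under 0.05 and blue bars are list medians. The 3 MondoA-MLX targets stand at the left with a median of -0.77, against 0.11 for the 30 MYC-induced genes. The lists were chosen with earlier results of these data known.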

How the data were processed

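RNA-seq of 4 iTreg libraries (2 Mock, 2 FeSO4, grouped by the labels) was analyzed. The authors deposited raw counts for each Ensembl gene ID, without normalization. The methods name STAR, build mm9 and DESeq, whereas the submitters' processing notes list mm10, Trim Galore 0.6.7, STAR 2.7.9a and featureCounts, and the table ends in unassigned rows as HTSeq writes them. The strand setting and annotation release were not given in the sources used here. The 5 unassigned rows were left out. They held 4.36 to 6.03% (no feature), 3.78 to 3.91% (ambiguous), 0.802 to 0.988% (low quality), 1.8 to 2.31% (not aligned) and 4.27 to 4.62% (not unique) of the table's total. No molecular identifiers are mentioned.

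Tests were run with edgeR 4.0.16 (R 4.3.3): filterByExpr by group (13732 genes), TMM, the quasi-likelihood F test, and adjustment after Benjamini-Hochberg over these genes. CPM used TMM-scaled library sizes, and the SE is the log2 fold change over the square root of F. Without a block, same-numbered libraries were treated as independent. Alternatives were DESeq2 1.42.0, limma-voom (limma 3.58.1), other scalings and filters, a replicate block and each library left out. The fit was tested on simulated data.

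The network genes and lists were chosen with earlier results of these data known. Named are all network genes, all genes of lists under 6 genes, up to 4 genes of smallest p of longer lists, any called gene against its list's majority, and the 3 genes closest to *Myc*, of which 1 is not reported here. Genes named beyond this rule, after their values were seen, are marked as such.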

Additional observations from a re-analysis of the deposited data

How the results depend on the processing

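Of the network genes, none was called higher under any alternative. *Mxd4* was called lower in all but the fit of every gene with at least 1 count and at the study's cutoff. With every gene of at least 1 count its log2 fold change was -0.42, against -0.43 in the reported fit. The filter gave 524 higher and 304 lower genes in all, 0 lower network genes, and 5 higher and 4 lower genes in the other lists, against 1491, 1259, 2, 13 and 10 in the reported fit. The study's cutoff gave 641 and 787 genes, 0 network genes, and 1 higher and 3 lower list genes. With library size only, 980 genes were higher and 1810 lower, 3 network genes were lower, and 9 list genes were higher and 16 lower. Higher genes made up 35.1% of all calls there, against 54.2% with TMM, 52.7% with DESeq2 scaling and 48% with the upper quartile, and the median of all genes was -0.066. Leaving out 1 library gave 926 to 1155 higher and 751 to 1060 lower genes, 1 to 3 lower network genes, and 8 to 15 higher and 6 to 11 lower list genes. The 1 and 3 network genes came from leaving out a replicate 2 library and Mock replicate 1. Leaving out 1 library also lowered the number of libraries, and the filter of at least 1 count raised the genes tested to 22164. The cause of these shifts was not tested.

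With the replicate block, 1847 genes were higher and 1580 lower, the same 2 network genes were lower (*Mxd4* adjusted p = 5.25e-05, *Mga* 0.0159), and 17 list genes were higher and 14 lower. The genes gained, several of them named after their values were seen, were *Trrap* (0.0107), *Hdac2* (0.0453), *Ring1* (0.0332), *Gsk3b* (0.0348), *Fbl* (0.0314), *Srm* (0.00758), *Ccnd2* (0.0294) and *Tfap4* (0.0369). The methods describe 2 pairs from 2 experiments, but no source says that the number marks the pair. Deviations of same-numbered libraries correlated with r = 0.22 over 8522 genes of at least 10 CPM, and with 0.0355 over all genes tested. An older quasi-likelihood method, chosen after seeing the data, gave 1455 and 1221 genes and called the same 2 network genes. *Hcfc1* missed the threshold with it (-0.21, adjusted p = 0.0512).

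An SD of 2 libraries reflects only their difference. Depth limits *Mycn*, *Mycl*, *Arrdc4* and *Cdkn2b*, and *Mlxipl* had too few counts to be tested. Reads cannot be assigned to a strand for *Mxd3*, *Mlx* and *Mlxip* where exons overlap, and mRNA says nothing of protein levels.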
